A study of Mus musculus with 8 samples.

Results

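Pachytene spermatocytes were set against every other stage measured, to find transcripts that peak in these cells and transcripts that fall to their lowest level there. A gene counted as pachytene-high when both pachytene arrays lay above all 6 other arrays on log2(signal + 16), and as pachytene-low when both lay below all 6. Of 14155 genes tested, 2287 (16.2%) were pachytene-high and 1906 (13.5%) pachytene-low. These counts describe the arrays and carry no p-value. The same 8 arrays were also fitted with limma, and a gene was called above or below each other stage when pachytene cells differed in 1 direction from type A spermatogonia, type B spermatogonia and round spermatids. Each of the 3 adjusted p-values had to be under 0.05, and the highest of them is the one printed. Of the tested genes, 908 (6.41%) were above each other stage and 683 (4.83%) below, and all of these also met the range rule. Both rules use the same 8 arrays, so this overlap is no independent support.

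The other stages were spermatogonia of type A and of type B, which precede meiosis, and round spermatids, which follow it. Each of the 4 groups had 2 arrays, so 2 pachytene arrays stand against 6. All samples were total RNA of germ cells from mice of the BL/6-129 strain, hybridized to Mouse 430 2.0 oligonucleotide arrays, and the labels name no treatment. The series design gives each array its own germ cell preparation. No source used here gives the age of the mice, the number of animals behind a preparation, or how pure it was.

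Spermatogonia are the dividing cells that feed meiosis. Pachytene is the long stage of the first meiotic prophase in which homologous chromosomes are fully paired along the synaptonemal complex and recombination intermediates mature into crossovers. In males the X and Y pair only over a short region, and their unpaired chromatin is condensed into the sex body and transcriptionally silenced, which is called meiotic sex chromosome inactivation. Autosomes, by contrast, are actively transcribed, including the clusters that give rise to pachytene piRNAs, small RNAs bound by PIWI proteins. Much of the messenger RNA made at this stage is stored for use in the haploid spermatids.

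Several properties of the arrays touch every result. The median probe set read 33.7 to 37.3 on the later 4 arrays and 41.5 to 51.9 on those of spermatogonia, and the number of arrays limits the precision. The pachytene replicates correlated at r = 0.980 across genes, which are not independent replicates, with an SD of their log2 difference of 0.341, against r = 0.886 and an SD of 0.757 for type B. Type B replicate 2 stood apart, with a signal of 4896 for the germ cell lactate dehydrogenase Ldhc against 28.3 in replicate 1 and 5975 and 6563 in pachytene cells. The limma fit used 1 spread per gene for all groups. A gene on which the type B arrays disagreed therefore has a larger SE in every comparison, also that with spermatids. The 3′ control probe set for 18S ribosomal RNA read 120.1 to 276.3 on the pachytene and spermatid arrays and 2658 to 3451 in spermatogonia. Its part in the differences from spermatogonia was not tested. In bulk RNA a change in the number of cells of a type and a change in RNA per cell cannot be told apart.

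All 4 genes taken as markers of pachytene cells were highest in the pachytene samples. They were chosen with earlier results of these arrays known, so their levels check the label and are no independent evidence. Signals of Id4, an inhibitor of DNA binding by helix-loop-helix factors, were 197 and 315 in type A, 261 and 373 in type B, 1460.1 and 1321 in pachytene cells and 156 and 122 in spermatids. Both pachytene arrays lay far above the rest, and the groups did not overlap. The log2 differences from type A, type B and spermatids were 2.40, 2.10 and 3.19 (SE 0.28), with an adjusted p of 0.000512 by limma. All 3 probe sets of Id4 were pachytene-high, with gaps of 1.78, 1.56 and 1.24 log2 units between the lower pachytene array and the highest other array.

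Piwil1, which encodes the PIWI protein MIWI that binds pachytene piRNAs, read 17.7 and 36.2 in type A, 48.3 and 252 in type B, 1792 and 1621 in pachytene cells and 309 and 231 in spermatids. The type B arrays disagreed, with replicate 2 close to the spermatids, and pachytene cells were still the highest by a wide gap. Differences were 5.36, 3.71 and 2.60 (SE 0.57) and the adjusted p was 0.00916, which was 0.055 without pachytene replicate 1 and to 0.0765 without spermatid replicate 2. Tdrd5, a tudor protein of the germ granules in which piRNAs are processed, read 207 and 245 in type A, 178 and 244 in type B, 958 and 867 in pachytene cells and 139 and 139 in spermatids. Neither the spermatogonial nor the spermatid arrays approached the pachytene ones, and the differences were 1.94, 2.05 and 2.58 (SE 0.21), with an adjusted p of 0.000211. Mybl1, the MYB-family factor known as the main activator of pachytene piRNA precursors, read 149 and 119.5 in type A, 236 and 239 in type B, 1166 and 684 in pachytene cells and 307 and 246 in spermatids. Its pachytene arrays differed more from each other than those of the other markers, and both exceeded all others. Differences were 2.61, 1.84 and 1.64 (SE 0.28) (adjusted p = 0.00256), and both of its probe sets were pachytene-high, with gaps of 1.12 and 1.02.

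**Figure D1:**
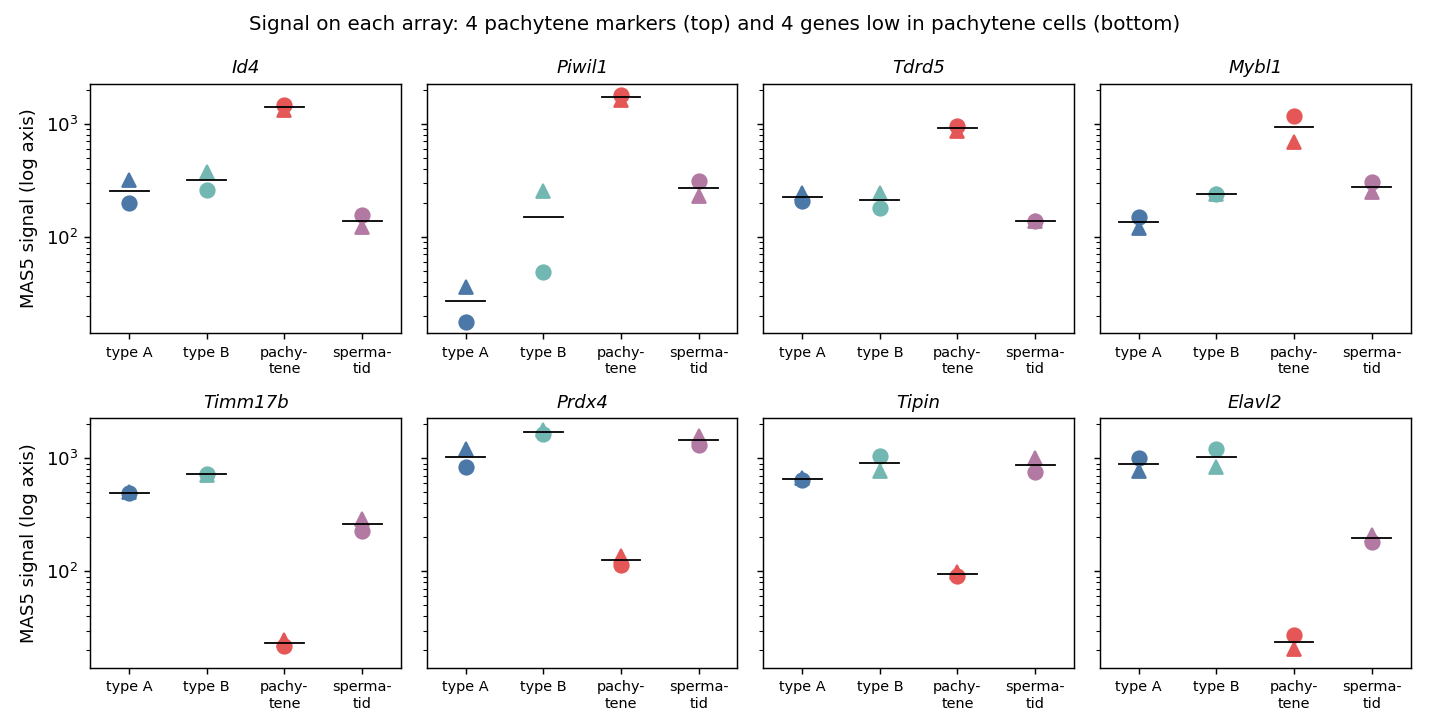
MAS5 signal on a log axis for each array, with type A, type B, pachytene and spermatid arrays from left to right, circles for replicate 1, triangles for replicate 2 and a bar at the mean of the 2 signals. The 4 markers in the top row are highest in pachytene cells, and Timm17b, Prdx4, Tipin and Elavl2 in the bottom row are lowest there.

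Because Mybl1 was among the genes that peaked, the bases just upstream of other peaking genes are shown for the letters that MYB factors bind. Each line gives the 150 bases before the RefSeq transcription start in the GRCm38.p6 assembly, 5′ to 3′ on the strand of the gene, and capitals mark TAACNG or CAACNG on either strand. Shown are the markers whose promoter was in the table, and Pld6, Tdrd1, Tdrd9 and Exd1, the other piRNA genes above each other stage. The windows are chr5:128736096-128736245 on the plus strand for Piwil1, chr1:156303349-156303498 on the minus strand for Tdrd5, chr11:59787223-59787372 on the minus strand for Pld6, chr13:48260966-48261115 on the plus strand for Id4, chr19:56826059-56826208 on the plus strand for Tdrd1, chr12:111971409-111971558 on the plus strand for Tdrd9 and chr2:119547628-119547777 on the minus strand for Exd1.
Piwil1: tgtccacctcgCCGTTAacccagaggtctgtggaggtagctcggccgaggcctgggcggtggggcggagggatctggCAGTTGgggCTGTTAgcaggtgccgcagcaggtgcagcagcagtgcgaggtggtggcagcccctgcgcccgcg
Tdrd5: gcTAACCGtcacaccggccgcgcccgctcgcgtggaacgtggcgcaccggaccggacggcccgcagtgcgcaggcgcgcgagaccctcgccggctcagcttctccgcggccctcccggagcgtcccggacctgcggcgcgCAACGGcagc
Pld6: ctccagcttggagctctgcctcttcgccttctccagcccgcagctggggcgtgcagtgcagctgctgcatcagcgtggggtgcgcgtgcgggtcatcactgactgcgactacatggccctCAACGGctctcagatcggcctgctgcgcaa
Id4: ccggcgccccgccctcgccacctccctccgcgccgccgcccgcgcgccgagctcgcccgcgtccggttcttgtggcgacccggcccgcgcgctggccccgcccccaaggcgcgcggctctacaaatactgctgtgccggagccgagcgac
Tdrd1: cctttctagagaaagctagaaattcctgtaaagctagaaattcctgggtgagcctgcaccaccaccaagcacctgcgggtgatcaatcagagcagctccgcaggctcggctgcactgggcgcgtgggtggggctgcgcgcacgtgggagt
Tdrd9: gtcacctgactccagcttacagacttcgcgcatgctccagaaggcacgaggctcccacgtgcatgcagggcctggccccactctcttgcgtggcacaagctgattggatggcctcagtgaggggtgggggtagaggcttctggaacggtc
Exd1: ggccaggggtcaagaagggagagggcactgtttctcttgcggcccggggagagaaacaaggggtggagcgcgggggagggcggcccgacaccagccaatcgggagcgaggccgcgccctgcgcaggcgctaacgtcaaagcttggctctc
The letters occur 3 times in the window shown for Piwil1, 2 times in that for Tdrd5 and 1 time in that for Pld6. They are not in the windows shown for Id4, Tdrd1, Tdrd9 and Exd1. The window listed for Pld6 has no stop codon in 1 reading frame, so it may be coding sequence and not a promoter, which was not tested. Over the whole windows of 300 bases, Id4 holds them 2 times and Tdrd1, Tdrd9 and Exd1 0 times.

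Over whole promoter windows of 300 bases, 250 before the start and 50 after it, 731 of the 908 genes above each other stage had an entry, as did 11363 of the 14155 tested genes. The MYB letters were in 56.1% of the windows of genes above each other stage and in 46.5% of all windows. Among the 209 with a gap of at least 1 log2 unit the share was 63.2%, and among 478 autosomal genes below each other stage it was 38.5%. X-linked genes below each other stage held the letters in 63.5% of 85 windows, beside 55.0% of the 413 windows of all tested X-linked genes. The cAMP response element TGACGTCA was in 3.69% of windows of genes above each other stage and 3.06% of all, and GTTGCCAT, part of the RFX box, in 1.5% and 1.36%, each on both strands. Mean GC content was 61.2% in the first set and 60.1% over all. These shares were not tested, and a match is a description of letters and not a binding site.

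The 908 genes above each other stage exceeded type A by a median of 1.43, type B by 1.27 and spermatids by 1.24 log2 units, beside medians of -0.14, -0.07 and 0.06 over all tested genes. The stage closest to pachytene was round spermatids for 432 of them, type B for 315 and type A for 161. They were at least 2-fold above every other stage in 452 cases and at least 4-fold in 47. The 683 genes below each other stage had median differences of -1.89, -1.84 and -1.27, with spermatids the closest stage for 428, type B for 141 and type A for 114. Here 389 were at least 2-fold below every other stage and 56 at least 4-fold. Where a gene above each other stage had further probe sets, 62.4% of those 961 lay above the means of all 3 other stages, beside 22.7% of the further probe sets of all tested genes. Below, it was 64.8% of 836 beside 27.1%.

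**Figure D2:**
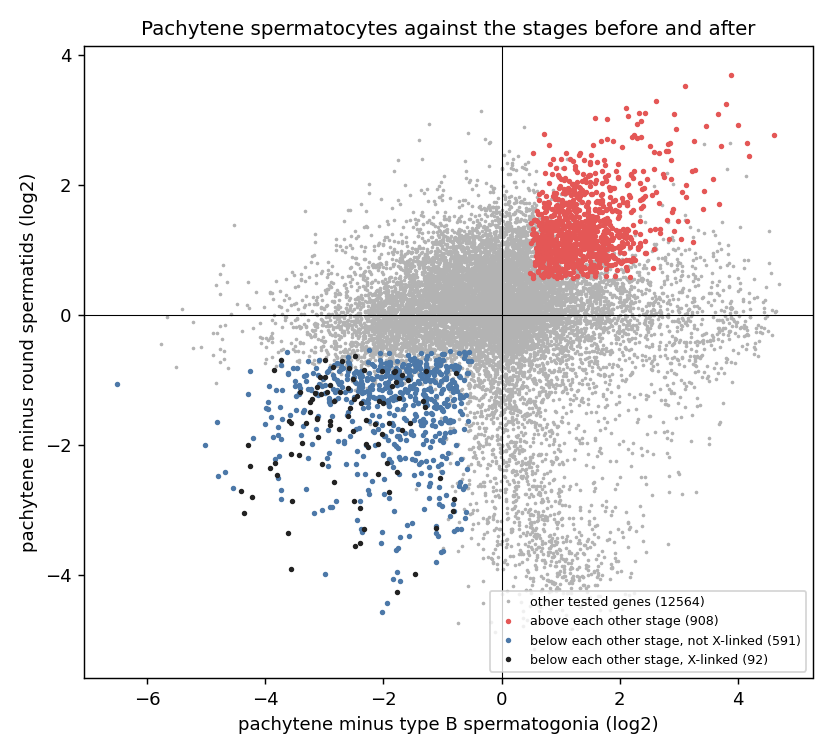
Each point is a tested gene, with its log2 difference between pachytene spermatocytes and type B spermatogonia on the horizontal axis and between pachytene spermatocytes and round spermatids on the vertical axis. The 908 genes above each other stage fill the upper right, and the 683 below each other stage, 92 of them X-linked and drawn in black, fill the lower left.

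The range rule is wider than the test. Just inside its upper edge lay Srp14, with 2859 and 3194 in pachytene cells and 2622 and 2858 in spermatids. E230029C05Rik, with 124 and 107 in pachytene cells and 79.7 and 107 in spermatids, lay just outside. At the lower edge, Tgfbr1 was just inside, with 303 and 218 in pachytene cells and 308 and 303 in spermatids, and 1110008P14Rik was just outside at 51.9 and 81.1 beside 81.1 and 106 in spermatids. The filter for testing asked for a signal above the array's median on at least 2 of 8 arrays. It was met through the pachytene arrays alone by 128 genes, 108 of which were pachytene-high, and by 47 of the 908 genes above each other stage. Of the 683 below, 241 had no pachytene array above the median. How often each spermatogonial array was the extreme one was not counted over all tested genes. Among called genes, type B replicate 2 was the highest spermatogonial array for 51.3% of those above each other stage and the lowest for 51.7% of those below. Without it, limma called 1117 genes above and 881 below. Leaving out pachytene replicate 1 or 2 left 386 and 469 genes above each other stage, and 381 and 393 genes below each other stage. Without spermatid replicate 1 or 2 the counts were 615 and 519 above and 395 and 376 below.

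The balance of calls depends on the scaling. The authors' values had equal trimmed means on each array, and genes above made up 57.1% of all limma calls. With each array centred on ribosomal protein genes the share was 81.9%, with 1193 genes above and 264 below. For the range rule it moved from 54.5% to 78.6%. That centring moved the median difference of all genes from -0.14 to 0.67 against type A, from -0.07 to 1.02 against type B and from 0.06 to 0.03 against spermatids.

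The 20 genes with the widest gap above all other arrays, leaving aside symbols that are clone or model names, came from several functions. Mlc1, a membrane protein known from astrocytes, had the widest gap, with signals of 15.0 and 2.4 in type A, 2.4 and 30.8 in type B, 470.1 and 329 in pachytene cells and 46.5 and 13.8 in spermatids. Its spermatogonial and spermatid arrays were all low and did not overlap with pachytene cells (differences 4.10, 3.80 and 3.25 (SE 0.51), adjusted p = 0.00197). All 20 were chosen for their gap among genes called on these arrays. Their lack of overlap follows from that choice, and their differences may be too large. Piwil1 came next. The axonemal dynein assembly factors Dnaaf4 and Dnaaf6 were both in the group. Dnaaf4 read 689 and 624 in pachytene cells and 12.4 to 134 on the other arrays, and Dnaaf6 read 346 and 361 and 5.4 to 68.9. The differences from type A, type B and spermatids were 4.37, 3.25 and 2.68 (SE 0.58) for Dnaaf4 and 3.89, 3.22 and 2.22 (SE 0.48) for Dnaaf6.

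Ttc30a1, an intraflagellar transport protein, and Tchp, a keratin-binding protein that restrains cilium growth at the centriole, had lower values on every other array too. Ttc30a1 read 1104 and 1001 in pachytene cells and 66.2 to 253 elsewhere, and Tchp 1266 and 1185 and 88.3 to 258. Enzymes in the group were the cyclic nucleotide phosphodiesterase Pde10a, the keratan sulfate sulfotransferase Chst1, the carboxyl methyltransferase Armt1 and the renalase gene Rnls. Rnls was the brightest of them, with signals of 68.2 and 66.2 in type A, 122 and 534 in type B, 2079.6 and 2180.2 in pachytene cells and 299 and 259.8 in spermatids. Type B replicate 2 was the highest of its other arrays. Chromatin and transcription were represented by Phf2, a histone demethylase, Ino80c, a subunit of the INO80 remodeller, and the POU factor Pou6f1. Pou6f1 read 177 and 168 in type A, 125 and 202 in type B, 899 and 1086 in pachytene cells and 140.4 and 159 in spermatids, with little spread outside pachytene cells. Its differences were 2.41, 2.52 and 2.60 (SE 0.25), and its adjusted p of 0.000175 was the lowest of the 20. Phf2 read 1111 and 1103 in pachytene cells and 114 to 275 elsewhere.

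Ddx19b, an RNA helicase of messenger RNA export, read 852 and 701 against 92.3 to 174. The focal adhesion adaptor Lpxn read 783 and 878 against 16.1 to 165. Lrrc61 and Crybg3, with pachytene signals of 635 and 634 and of 1466 and 1429.6, and Ccdc89 and Fam181a, with 1343 and 1477 and 919 and 877, complete the set together with Pld6. The calls of 7 of the 20 ended when 1 array was left out. Besides Piwil1, the highest adjusted p reached was 0.151 for Ccdc89, 0.117 for Fam181a, 0.0781 for Lpxn, 0.0661 for Dnaaf6, 0.062 for Pde10a and 0.0604 for Dnaaf4. A pseudocount of 1 ended the calls of Ccdc89, Fam181a and Dnaaf6, and quantile normalization or averaging all probe sets that of Ccdc89. Without spermatid replicate 2, 13 of the 20 passed, and without pachytene replicate 1, 15 did. Of the 17 with a promoter entry, 13 held the MYB letters in the window of 300 bases, beside 46.5% of all windows. This difference was not tested.

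**Figure D3:**
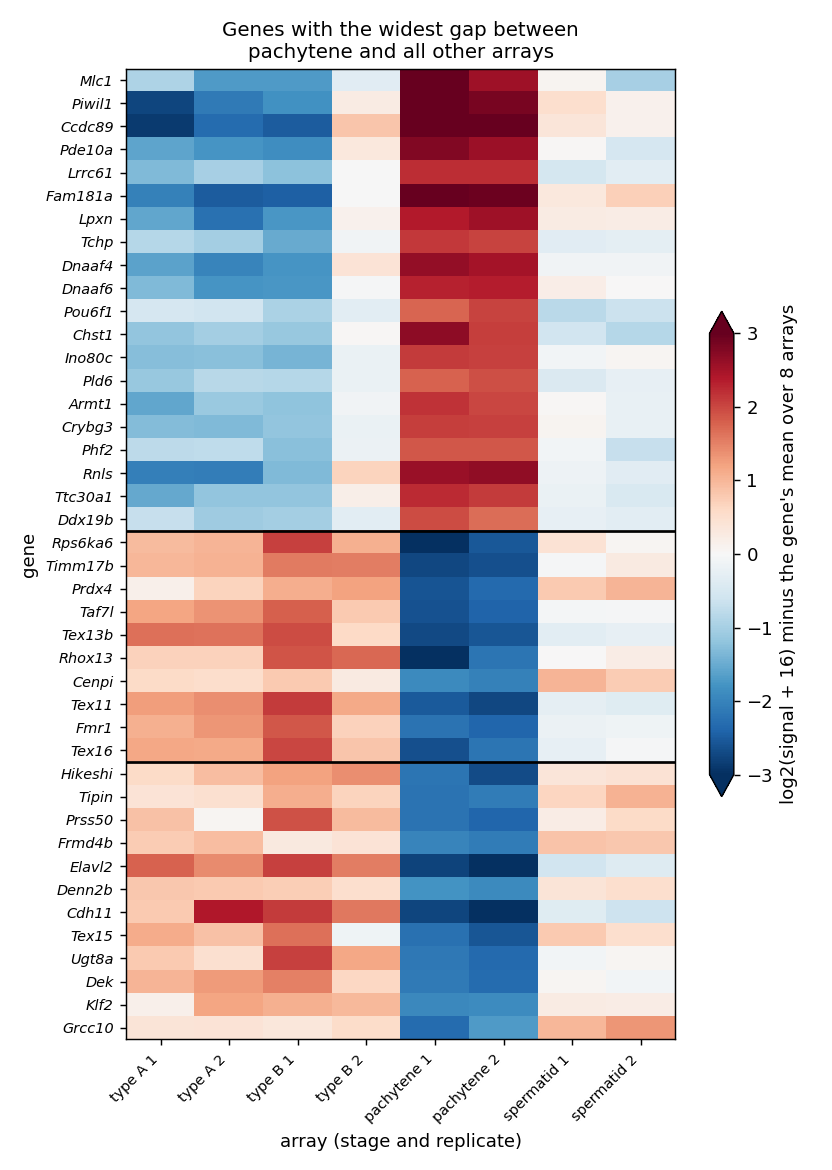
Heat map of log2(signal + 16) minus the mean of each gene over 8 arrays, with 1 column per array and the colour scale limited to 3 units either way. The upper 20 genes are highest and the lower 22, 10 X-linked and then 12 autosomal, are lowest in the 2 pachytene columns, while type B replicate 2 is above replicate 1 for each of the upper 20.

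Of the piRNA pathway, 7 of 22 tested members were above each other stage and 2 below, beside 6.41% and 4.83% of all tested genes. Piwil1, Tdrd5 and Mybl1 are among the 7 and were chosen as markers with earlier results known, and without them 4 of 19 were above. Median differences over the list were 0.95, 0.98 and 0.59. Piwil1, Tdrd1, Tdrd5, Tdrd9, Pld6, Exd1 and Mybl1 rose. Pld6, the mitochondrial nuclease of piRNA biogenesis, read 164 and 207 in type A, 202 and 328 in type B, 1341 and 1501 in pachytene cells and 275 and 316 in spermatids, with spermatogonia and spermatids overlapping and both pachytene arrays far above them (differences 2.84, 2.39 and 2.21 (SE 0.26), adjusted p = 0.00044). Tdrd1, a tudor scaffold of germ granules, read 48.9 and 135 in type A, 70.9 and 76.1 in type B, 371 and 443 in pachytene cells and 80.8 and 68.5 in spermatids. Its type A arrays disagreed, pachytene cells were above every other array, and the differences were 2.09, 2.24 and 2.22 (SE 0.36) (adjusted p = 0.00216). Tdrd9, a helicase of the same pathway, and Exd1, another member of the list, rose less. Tdrd9 read 712 and 683 in pachytene cells against 185 to 417, and Exd1 455 and 442 against 185 to 247.

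Btbd18 and Tex15 fell. Btbd18, a nuclear factor needed for transcription of pachytene piRNA precursors, read 195 and 206 in type A, 260.1 and 140.0 in type B, 23.7 and 24.2 in pachytene cells and 67.8 and 75.6 in spermatids, lowest in pachytene cells. Tex15, known for piRNA-directed silencing and for recombination, read 1696 and 1438 in type A, 2453 and 710.4 in type B, 152 and 116 in pachytene cells and 1335 and 1103 in spermatids. Both pachytene arrays lay far under all others, with differences of -3.40, -3.17 and -3.04 (SE 0.49) and an adjusted p of 0.0021. Piwil2 met the range rule with 1125 and 937 in pachytene cells against 224 to 713 but had an adjusted p of 0.0507, and Ddx4, Mael and Tdrd7 had spermatid values at or above the pachytene ones in at least 1 array. The call of Tdrd9 ended without type A replicate 1 or either pachytene array (adjusted p up to 0.0733), and that of Btbd18 without any 1 of the pachytene or spermatid arrays (up to 0.0889). The count above was 5 to 9 over arrays left out in turn, lowest without pachytene replicate 1.

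Genes of the paired chromosomes did not move as 1 group. Of 19 tested synaptonemal complex and chromosome axis genes, 2 were above each other stage and 3 below, beside 6.41% and 4.83% of all genes. Those above were Majin and Terb2, which tether telomeres to the nuclear envelope. Majin read 131 and 83.7 in type A, 204 and 159 in type B, 345 and 329.6 in pachytene cells and 109 and 140.3 in spermatids, and Terb2 read 189 and 163 in pachytene cells against 60.4 to 116 elsewhere. Majin was not called without type B replicate 2 or either pachytene array (adjusted p up to 0.0876). Terb2 kept its call only with type A replicate 1 or type B replicate 2 left out, and otherwise reached up to 0.164. Without type B replicate 1, 4 members were above. Those below were Syce2, of the central element, the cohesin subunit Smc3 and the meiotic cohesin Rec8. Syce2 read 1341 and 1247 in type A, 2178 and 1825 in type B, 504 and 463 in pachytene cells and 2042 and 2395 in spermatids. Both the stages before and the stage after were higher, and the same held for Smc3, at 93.7 and 98.0 in pachytene cells against 385 to 757, and for Rec8, at 24.8 and 3.6 against 78.2 to 680.4. Syce2 and Rec8 were not called when arrays were centred on ribosomal protein genes.

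Sycp1 and Sycp3, which build the transverse filaments and the lateral elements, were not called. Sycp3 read 1642 and 1454 in type A, 2728 and 1475 in type B, 2694 and 2586 in pachytene cells and 1698 and 1758 in spermatids, so type B replicate 1 was as high as pachytene cells (differences 0.77, 0.39 and 0.61 (SE 0.28), adjusted p = 0.265). Sycp1 read 776 and 584 in type A, 1274 and 232 in type B, 762 and 427 in pachytene cells and 851 and 725 in spermatids, with differences of -0.23, 0.05 and -0.45 (SE 0.66) that did not exceed the spread. Sycp2, of the lateral elements, was pachytene-high at 2043 and 1416 against 453 to 1243, with an adjusted p of 0.126.

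Among 12 tested break formation and strand exchange genes, 2 were above and 3 below each other stage, beside 6.41% and 4.83% of all genes. Spo11, the enzyme that cuts DNA to start recombination, read 95.7 and 78.2 in type A, 111 and 139 in type B, 907 and 854 in pachytene cells and 323 and 397 in spermatids. Pachytene cells were highest, with spermatids between them and spermatogonia, with differences of 3.13, 2.68 and 1.26 (SE 0.21) and an adjusted p of 0.0025. Hsf2bp, a partner of BRCA2 in meiosis, read 897 and 897 against 137 to 567. The break factor Rec114 and the strand exchange recombinase Dmc1 fell, as did Brca1. Dmc1 read 265 and 229 in type A, 619.7 and 278 in type B, 34.9 and 26.7 in pachytene cells and 169.8 and 168 in spermatids, highest in type B replicate 1, with differences of -2.49, -3.21 and -1.99 (SE 0.34) and an adjusted p of 0.0027. Rec114 read 38.2 and 44.8 against 82.0 to 221, and Brca1 63.9 and 42.5 against 162 to 437. Hsf2bp was not called without any 1 of the pachytene or spermatid arrays (adjusted p up to 0.1), nor was Rec114 without pachytene replicate 1 or spermatid replicate 2 (up to 0.0804). Both calls ended with all probe sets averaged, and that of Hsf2bp with ribosomal centring. The count below was 5 without type B replicate 2.

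Of 10 tested crossover and mismatch repair genes, Mlh3 was above and Tex11 below each other stage, beside 6.41% and 4.83% of all genes. Mlh3, a mismatch repair gene needed for crossovers, read 107 and 97.7 in type A, 108 and 115 in type B, 307 and 268 in pachytene cells and 66.5 and 70.6 in spermatids. Pachytene cells were well above all other samples, and the differences were 1.35, 1.25 and 1.84 (SE 0.18) (adjusted p = 0.000771). Tex11, an X-linked crossover gene, read 617 and 677 in type A, 1124 and 561 in type B, 29.9 and 23.7 in pachytene cells and 205 and 190.1 in spermatids, with differences of -3.96, -4.25 and -2.32 (SE 0.31) and an adjusted p of 0.00081. Cdk2, which also marks crossover sites, was pachytene-high at 1018 and 928 against 220.2 to 758 with an adjusted p of 0.06. Without type B replicate 1, 2 members of this list were above each other stage.

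Of 28 tested regulators of the meiotic divisions, 2 (7.14%) were above and 3 (10.7%) below, beside 6.41% and 4.83% of all tested genes, so the share above was near that of all genes. Nek2, a centrosomal kinase, read 394 and 455 in type A, 510.1 and 859 in type B, 2607 and 2666 in pachytene cells and 1484 and 1082 in spermatids, highest in pachytene cells with spermatids next (differences 2.59, 1.97 and 1.05 (SE 0.28), adjusted p = 0.0211). Cdk1, the kinase that drives division, read 609.7 and 706 against 298 to 464. The cyclin genes Ccna2 and Ccnb3 and the phosphatase gene Cdc25c fell. Ccna2 had differences of -2.41, -2.39 and -1.01 (SE 0.22). Cdc25c read 112 and 91.2 in type A, 92.9 and 52.3 in type B, 35.2 and 23.8 in pachytene cells and 204 and 179 in spermatids, lowest in pachytene cells and highest in spermatids. Ccna1, the meiotic A-type cyclin, was not called because spermatids were higher still, with 525 and 562 in pachytene cells and 1139 and 1227 in spermatids. Without pachytene replicate 1, 0 were above, and over all arrays left out in turn 1 to 5 were below, most without type B replicate 2. The call of Nek2 ended without a pachytene array or spermatid replicate 2 (adjusted p up to 0.154), and that of Cdk1 without type A replicate 1, type B replicate 1 or a pachytene array (up to 0.153). Quantile normalization also ended the call of Cdk1. The call of Cdc25c ended without type B replicate 1 or pachytene replicate 2 (up to 0.112) and under each other scaling, and under ribosomal centring its difference from type B was 0.15, so its place as lowest in pachytene cells does not hold there. That of Ccna2 ended without pachytene replicate 1 or spermatid replicate 2 (up to 0.0653), or with all probe sets averaged. Ccnb3, on the X, had an adjusted p of 0.0483, kept its call only with a type B array left out, and lost it with a pseudocount of 64, ribosomal centring or all probe sets averaged.

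Of 28 tested transcription regulators of meiotic and haploid cells, 4 were above each other stage and 2 below. This compares with 6.41% and 4.83% of all tested genes. Mybl1 and Id4 are among the 4 above and were chosen as markers with earlier results known, and without them 2 of 26 were above. Both are described with the markers. Tesmin, a metallothionein-like regulator of the testis, read 125 and 109 in type A, 222 and 549.6 in type B, 2092 and 2163 in pachytene cells and 583 and 575 in spermatids. Its spermatid arrays and type B replicate 2 were level with each other and well under pachytene cells, with differences of 4.01, 2.55 and 1.85 (SE 0.36) and an adjusted p of 0.00511. Ovol1, a zinc finger factor of pachytene progression, read 186 and 214 against 50.6 to 103. Stra8, the gatekeeper of meiotic entry, and Taf7l, an X-linked TFIID subunit, fell. Stra8 read 675 and 850.1 in type A, 1219 and 748 in type B, 61.3 and 89.3 in pachytene cells and 189.6 and 197 in spermatids, with differences of -3.10, -3.43 and -1.21 (SE 0.28). Spermatids overlapped with or exceeded pachytene cells for other regulators. Rfx2 read 1087 and 1249.5 in pachytene cells and 1256 and 957 in spermatids, Crem 602 and 701 and 1346 and 1693, and Brdt 1069 and 1174 and 1324 and 1209.7. Hsf5 was pachytene-high at 2446 and 2183 against 43.5 to 1493, with an adjusted p of 0.482, and passed when type B replicate 1 or 2 was left out. The call of Ovol1 ended without pachytene replicate 2 or spermatid replicate 2 (adjusted p up to 0.0791), and that of Stra8 without pachytene replicate 1 or either spermatid array (up to 0.0882). Without type B replicate 2 the list had 5 genes above and 4 below.

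Of 26 tested RNA binding and translation control genes, 5 were above each other stage and 1 below, beside 6.41% and 4.83% of all genes. Boll, a DAZ-family protein of meiotic division, read 105 and 91.6 in type A, 209 and 227 in type B, 1302 and 1062 in pachytene cells and 527 and 339.5 in spermatids. It rose over both spermatogonial stages and was lower again in spermatids (differences 3.39, 2.35 and 1.44 (SE 0.25), adjusted p = 0.00285). Cpeb2, a cytoplasmic polyadenylation factor, read 192 and 147 in type A, 272 and 352 in type B, 1098 and 797 in pachytene cells and 146 and 133 in spermatids, and its spermatids were at or below the spermatogonia. Dazap1 had pachytene signals of 1544 and 1519 against 512 to 745 elsewhere, Rbm44 1187 and 1207 against 371 to 732 and Larp1 1798 and 1628 against 372 to 1096. Elavl2 fell and is described with the autosomal genes. Ybx2, which stores messenger RNA, was equally high in both later stages, at 3875 and 4090.0 and 3904 and 4164. The call of Rbm44 ended without a pachytene array or spermatid replicate 2 (adjusted p up to 0.0888), and that of Larp1 without any 1 array outside type B (up to 0.234), with the replicate block, with a pseudocount of 1 and under each other scaling. Ribosomal centring also ended the call of Rbm44. Without type B replicate 1 or 2, 3 members were below, and without either pachytene array or spermatid replicate 2, 3 were above.

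Genes written here as a list of pachytene spermatocyte genes mostly did not separate these cells from spermatids. The list holds some genes far higher in spermatids. Theg read 92.8 and 77.7 in pachytene cells and 1218 and 1508 in spermatids, and Spag6 92.8 and 59.4 and 1586 and 1605. Of 27 tested, 0 were above each other stage by limma and 6 were pachytene-high, beside 6.41% and 16.2% of all genes. At an unadjusted p under 0.05 in all 3 comparisons the count above was also 0, and no array left out gave a call. The list exceeded type A by a median of 3.54 and type B by 2.73, while its median difference from spermatids was -0.14. The type B value rests on which array is used, being 1.58 if replicate 1 is left out and 3.48 if replicate 2 is. The list's summed signal was 5288 in replicate 1 and 22708 in replicate 2. The testis chaperone Hspa2 read 405 and 304 in type A, 425 and 1809 in type B, 3696 and 3949.8 in pachytene cells and 4049.5 and 3604 in spermatids, equal in pachytene cells and spermatids. Adam2, a sperm surface protein, was pachytene-high at 2954 and 2967 with 2319 and 2351 in spermatids, and Tcte2 read 925 and 768 with 582 and 523. Their differences were 6.35, 4.19 and 0.34 (SE 1.12) and 4.44, 3.27 and 0.60 (SE 0.73), with adjusted p of 0.855 and 0.586. The spread behind these values includes type B, with 19.2 and 742.5 for Adam2 and 18.1 and 216.9 for Tcte2. A high adjusted p here is therefore no sign of equal levels in pachytene cells and spermatids. For Adam2 and Tcte2 the differences from type B were 1.97 and 1.88 without replicate 1 and 6.4 and 4.65 without replicate 2. Cdc25c was the 1 member below, and it was not called without type B replicate 1 or pachytene replicate 2. Of 35 acrosome and flagellum genes, 0 were called either way by limma (also 0 at an unadjusted p under 0.05). Over all tested genes 6.41% were above and 4.83% below. Medians of the 35 were 3.66, 2.18 and -3.45, the second 1.03 without type B replicate 1 and 3.14 without replicate 2. Their summed signal was 948.5 and 937 in type A, 1005 and 8681 in type B, 26801 and 28307 in pachytene cells and 79579 and 82548 in spermatids. The part of spermatid RNA in the other preparations was not tested. Acrv1, of the acrosome, read 176 and 119 in pachytene cells, 2406 and 2446 in spermatids and 16.7 to 67.8 in spermatogonia.

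X-linked genes were at their lowest in pachytene cells as a group. The median X-linked level minus the median autosomal level, in log2 units over 477 X-linked and 13589 autosomal genes, was 0.16 and 0.10 in type A, 0.03 and -0.12 in type B, -1.27 and -1.12 in pachytene cells and -0.80 and -0.68 in spermatids. Both pachytene arrays lay below all others, and the spermatids lay between pachytene cells and spermatogonia. The pachytene mean of -1.20 was -0.98 from the mean of the other 6 arrays, -0.22. An exact two-sided permutation test gave p = 0.0714, the smallest that 2 arrays against 6 allow.

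Of the 477 X-linked genes, 184 (38.6%) were pachytene-low and 4 (0.839%) pachytene-high, against 12.6% and 16.7% of autosomal genes. By limma, 92 (19.3%) were below each other stage and 1 (0.21%) above, against 4.32% and 6.65% of autosomal genes. Shares on single autosomes ran from 3.23% on chromosome 11 to 5.27% on chromosome 19 below, and from 4.71% on chromosome 18 to 8.72% on chromosome 19 above. Pachytene cells were below both spermatogonial stages for 326 X-linked genes (68.3%). Of these, 92 (28.2%) were also below spermatids, 26 were above them and 208 did not pass either way. For autosomal genes, 4008 (29.5%) were below both spermatogonial stages, and 587 of these (14.6%) were also below spermatids.

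**Figure D4:**
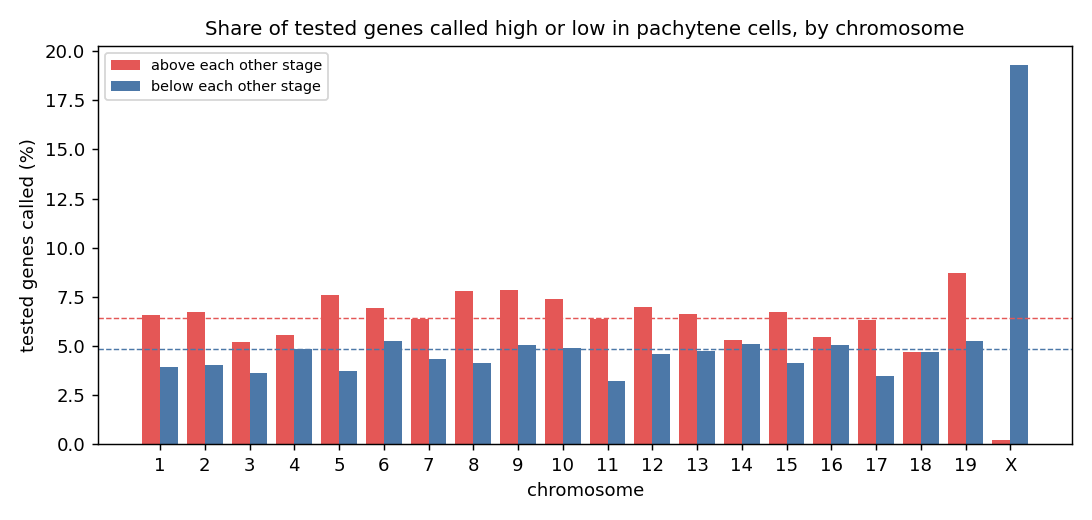
Percentage of tested genes called above (red) or below (blue) each other stage on chromosomes 1 to 19 and X, with dashed lines at 6.41% and 4.83% for all tested genes. On the X, 19.3% of genes were below and 0.21% above, while the autosomes stayed between 3.23% and 5.27% below and between 4.71% and 8.72% above.

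The 10 X-linked genes with the widest gap kept their call under the other pseudocounts and scalings, with all probe sets averaged and with the replicate block. They were chosen for this gap, so their lack of overlap with other stages follows from the choice. Timm17b, of the mitochondrial import machinery, read 489.7 and 505 in type A, 725 and 719 in type B, 22.1 and 24.9 in pachytene cells and 229.9 and 291 in spermatids. Pachytene cells fell below both neighbours and the spermatids regained part of the level (differences -3.70, -4.22 and -2.80 (SE 0.19), adjusted p = 6.9e-05). Prdx4, a peroxidase of the endoplasmic reticulum, read 841 and 1216 in type A, 1629.9 and 1786 in type B, 113 and 138 in pachytene cells and 1316 and 1565 in spermatids. Its spermatids were as high as spermatogonia, and pachytene cells alone were low (differences -2.86, -3.61 and -3.36 (SE 0.24), adjusted p = 8.83e-05). Rps6ka6, a kinase gene, read 1.0 and 8.2 in pachytene cells, 175 and 132 in spermatids and 258 to 568 in spermatogonia. Cenpi, a centromere protein, read 5.0 and 3.4 in pachytene cells against 78.6 to 144, again with spermatids no lower than spermatogonia.

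Several others are germ cell genes. Taf7l read 1427 and 1601 in type A, 2198 and 1074 in type B, 88.2 and 104 in pachytene cells and 591 and 605 in spermatids, with differences of -3.77, -3.80 and -2.46 (SE 0.31). The homeobox gene Rhox13 read 9.7 and 29.3 in pachytene cells and 191 to 749 elsewhere. Tex13b read 36.1 and 40.9 against 259 to 1298, and Tex16 read 2.4 and 8.8 against 80.3 to 445. Fmr1, the translation regulator lost in fragile X syndrome, read 764 and 915 in type A, 1338 and 588 in type B, 64.8 and 55.7 in pachytene cells and 313 and 324 in spermatids. In these genes and in Tex11 the spermatids lay between pachytene cells and spermatogonia.

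Of 32 tested genes written as X-linked housekeeping genes, 7 were below each other stage and 0 above (12 and 0 at an unadjusted p under 0.05). Among all tested X-linked genes the shares were 19.3% below and 0.21% above. The list member Atp6v0e lies on chromosome 17 and was not called. Hprt, the purine salvage enzyme, read 555 and 565 in type A, 725 and 606 in type B, 58.1 and 95.3 in pachytene cells and 167 and 187 in spermatids, with differences of -2.66, -2.90 and -1.09 (SE 0.24). Eif1ax, a translation initiation factor, read 90.3 and 148 in pachytene cells, 571 and 705 in spermatids and 934 to 1105 in spermatogonia. Cul4b, a ubiquitin ligase scaffold, read 81.2 and 82.7, 866 and 651 and 351 to 737, and Huwe1, a ubiquitin ligase, 98.0 and 94.7, 357 and 312 and 626 to 1268. Prps1, Xiap and Timm17b, described above, were the others called. Pgk1 and Rps4x were as low in spermatids as in pachytene cells, with 145 and 123 and 106 and 113 for Pgk1 and 148 and 261 and 151 and 152 for Rps4x. Ddx3x was lower still in spermatids, at 86.5 and 63.5 after 184 and 287. The calls of Hprt, Prps1 and Xiap ended without pachytene replicate 1 or spermatid replicate 2, those of Prps1 and Xiap also without pachytene replicate 2, and that of Xiap also without spermatid replicate 1 (adjusted p up to 0.0723, 0.0807 and 0.186). Ribosomal centring ended the calls of Prps1 and Xiap, a pseudocount of 64 that of Xiap, and averaging all probe sets those of Eif1ax, Huwe1, Cul4b and Xiap. The count was 12 without type B replicate 1 or 2 and 4 without pachytene replicate 1 or spermatid replicate 2.

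Tsx was the 1 X-linked gene above each other stage. It read 42.6 and 28.8 in type A, 22.7 and 48.6 in type B, 109 and 157 in pachytene cells and 38.1 and 44.0 in spermatids, with differences of 1.52, 1.56 and 1.37 (SE 0.30) and an adjusted p of 0.00856 that reached 0.0681 with 1 array left out (pachytene replicate 2 or either spermatid array ended the call). The other X-linked genes inside the upper range were Alas2, Atp2b3 and Mcf2, with adjusted p of 0.109, 0.566 and 0.0814, and none of the 3 was called. Alas2 and Mcf2 passed the filter for testing through the pachytene arrays alone. Of 8 tested Y-linked genes, 6 were pachytene-low and 4 were below each other stage, beside 13.5% and 4.83% of all tested genes. Eif2s3y, the Y copy of a translation initiation factor, read 435 and 354 in type A, 539 and 327 in type B, 43.6 and 40.5 in pachytene cells and 454 and 419 in spermatids. The level in spermatids equalled that in spermatogonia and pachytene cells alone were low (differences -2.81, -2.91 and -2.96 (SE 0.26)). Uba1y, a ubiquitin-activating enzyme, read 75.7 and 71.9 against 494 to 1658, Zfy2, a zinc finger factor, 22.5 and 10.1 against 79.5 to 222, and Usp9y, a deubiquitinase, 38.2 and 52.3 against 134 to 418. Zfy2 and Usp9y were not called when arrays were centred on ribosomal protein genes. Usp9y was not called without any 1 of the pachytene or spermatid arrays (adjusted p up to 0.13).

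Some X-linked genes have autosomal retrogenes that are expressed in germ cells. Of 10 tested X-linked parents, 3 were below each other stage and 0 above, and 7 were pachytene-low. Among all tested X-linked genes, 19.3% were below each other stage and 38.6% pachytene-low. Of 14 tested retrogenes, 2 were above and 0 below (also 0 at an unadjusted p under 0.05), beside 6.41% and 4.83% of all genes. Among the 14, 2 (Usp26 and Ppp1r2-ps9) lie on the X themselves. Cstf2, of the polyadenylation machinery, read 593 and 650.3 in type A, 735 and 425 in type B, 45.7 and 44.6 in pachytene cells and 154 and 158 in spermatids, while its retrogene Cstf2t read 515 and 704 in type A, 721 and 666 in type B, 1412 and 1452 in pachytene cells and 609.5 and 436 in spermatids. The parent was lowest and the retrogene highest in pachytene cells, with differences of -3.38, -3.23 and -1.49 (SE 0.26) and 1.23, 1.03 and 1.45 (SE 0.24). Timm8a2 read 60.9 and 61.1 in type A, 60.5 and 142 in type B, 395 and 411 in pachytene cells and 83.7 and 66.4 in spermatids, with differences of 2.44, 1.93 and 2.21 (SE 0.32), and its parent Timm8a1 read 46.3 and 51.0 in pachytene cells and 52.7 and 39.2 in spermatids. Cetn2 and Utp14a were the other parents called, at 27.8 and 37.8 and 40.2 and 55.7 against 104 to 447 and 185 to 255. Pgk2, the retrogene of Pgk1, read 717 and 848 in pachytene cells and 2750.0 and 3123 in spermatids and was not called.

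Of 24 tested sex body and silencing factors, 3 were above each other stage and 4 below, beside 6.41% and 4.83% of all genes. Mdc1, which spreads phosphorylated H2AX over the sex chromosomes, read 330.2 and 240.0 in type A, 472 and 431 in type B, 1454 and 1212 in pachytene cells and 592 and 409.8 in spermatids. Pachytene cells were the highest and spermatids were level with type B, with differences of 2.17, 1.52 and 1.40 (SE 0.25) and an adjusted p of 0.00356. Atr, the kinase that starts this phosphorylation, read 2848 and 2667 against 849 to 1690.4, and Ago4 read 325 and 299 against 69.6 to 166. Atm, a related kinase, Brca1, Scml2 and Ube2a fell, and the last pair is X-linked. Ube2a, a ubiquitin-conjugating enzyme, read 215 and 303 in type A, 312 and 309 in type B, 45.6 and 39.6 in pachytene cells and 606 and 754 in spermatids, with its highest level in spermatids. Atm read 77.7 and 54.0 against 123 to 725, and Scml2, a Polycomb protein, 129.7 and 90.1 against 375 to 1415. Histone H2ax was pachytene-high at 915 and 908 against 497 to 787 but was not called (adjusted p = 0.266). The calls of Atr, Atm and Scml2 ended with 1 array left out (adjusted p up to 0.0554, 0.186 and 0.0721), Atr and Atm without pachytene replicate 1, and Atm and Scml2 without pachytene replicate 2 or either spermatid array. Each of those last 3 left 2 below. Ribosomal centring ended the call of Atm, and averaging all probe sets that of Atr.

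The 19 tested testis histone and histone exchange genes included 2 above each other stage (10.5%) and 0 below (also 0 at an unadjusted p under 0.05). Over all tested genes the shares were 6.41% and 4.83%. Kat5, the catalytic subunit of the TIP60 acetyltransferase complex, read 241 and 269 in type A, 258 and 423 in type B, 1314 and 1474 in pachytene cells and 567 and 604 in spermatids, with differences of 2.38, 2.02 and 1.23 (SE 0.25) and an adjusted p of 0.00627. H2az1, which encodes the variant H2A.Z, read 436 and 616 in type A, 535 and 1173 in type B, 1541 and 1790.2 in pachytene cells and 517 and 808 in spermatids. Type B replicate 2 came close to the pachytene arrays, and leaving out any 1 array other than this one ended the call (adjusted p up to 0.225), as did a pseudocount of 1, quantile normalization and averaging all probe sets. Protamine and transition protein genes were far higher in spermatids, as for Prm1 with 801 and 1017 in pachytene cells and 6044 and 6381 in spermatids.

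The 587 autosomal genes below each other stage included genes of several functions. Hikeshi, which carries heat shock protein into the nucleus, read 176 and 226 in type A, 278.9 and 322 in type B, 11.9 and 4.0 in pachytene cells and 149.8 and 156 in spermatids. Both pachytene arrays were far below every other (differences -3.19, -3.74 and -2.84 (SE 0.23), adjusted p = 8.72e-05). Tipin, of the replication fork protection complex, read 640.3 and 670.2 in type A, 1039 and 768 in type B, 90.5 and 98.6 in pachytene cells and 759 and 999 in spermatids. Its spermatids overlapped with spermatogonia, and pachytene cells alone were low, with differences of -2.60, -3.04 and -3.0 (SE 0.23) and an adjusted p of 9.99e-05. Frmd4b and Denn2b were also low in pachytene cells alone, with 37.3 and 33.4 in pachytene cells against 243 to 386 for Frmd4b and 71.2 and 65.1 against 378 to 514 for Denn2b. Grcc10 read 81.9 and 135 against 597 to 1209.9, with spermatids the highest stage.

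Elavl2, an RNA-binding protein of the Hu family, read 999 and 776 in type A, 1212 and 837 in type B, 27.2 and 20.6 in pachytene cells and 183 and 212 in spermatids. Spermatids stayed below spermatogonia and well above pachytene cells, with differences of -4.49, -4.69 and -2.42 (SE 0.25) and an adjusted p of 0.00023. Dek, a chromatin protein, read 144 and 125 in pachytene cells, 708 and 639 in spermatids and 1056 to 1956 in spermatogonia. The transcription factor Klf2 read 126 and 129.8, 618 and 609.6 and 579 to 1204, with spermatids overlapping with spermatogonia. Cdh11, a cadherin of mesenchymal cells, read 15.3 and 7.4, 148 and 122 and 349 to 1104, and its call ended when all its probe sets were averaged. Ugt8a, an enzyme of galactolipid synthesis, read 23.3 and 18.4 against 148 to 699, and the protease-like gene Prss50 14.6 and 11.3 against 133 to 519.8. Tex15 was the remaining gene of the 12 with the widest gap. All 12 were called under the other pseudocounts and scalings and with the replicate block, and 11 of 12 with all probe sets averaged. These 12 were chosen for their gap on these arrays, so their lack of overlap follows from the choice.

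Genes of differentiating spermatogonia and meiotic entry had 8 of 19 below each other stage and 1 above, with median differences of -2.27, -2.05 and -0.51. Over all tested genes the shares were 4.83% below and 6.41% above. Kit, the receptor of stem cell factor, read 717 and 853 in type A, 759 and 462 in type B, 63.5 and 64.8 in pachytene cells and 179 and 177 in spermatids. Pachytene cells were the lowest and spermatids regained part of the signal, with differences of -3.32, -2.92 and -1.28 (SE 0.25) and an adjusted p of 0.00556. Crabp1, a retinoic acid binding protein, read 485 and 478 in type A, 699 and 456 in type B, 21.9 and 24.2 in pachytene cells and 101 and 98.8 in spermatids, in the same order. Dmrt1 read 102 and 134 against 287 to 1823, and Sohlh2, a spermatogonial factor, 81.4 and 82.9 against 142 to 303. Stra8, Rhox13, Prss50 and Rec8 were the others below, and Stk31, a tudor-domain kinase-like gene, was above at 1233 and 1084 against 203 to 782. Without pachytene replicate 1 or either spermatid array, 5 were below, with Dmrt1 and Stra8 among those lost (adjusted p up to 0.0748 for Dmrt1). Sohlh2 kept its call only with a type B array left out (up to 0.169), and lost it with a pseudocount of 64, quantile normalization, ribosomal centring and the replicate block. Stk31 was not called without type A replicate 1, type B replicate 2 or either pachytene array (up to 0.125), or with quantile normalization.

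Of 17 tested genes of undifferentiated spermatogonia, Id4 was the 1 above and 0 were below each other stage (1 and 1 at an unadjusted p under 0.05). Among all tested genes 6.41% were above and 4.83% below. Id4 was chosen as a marker with earlier results known, and without it 0 of 16 were above. Zbtb16, a marker of undifferentiated cells, read 389 to 1088 in spermatogonia, 85.2 and 76.8 in pachytene cells and 81.5 and 73.3 in spermatids, and the later stages overlapped. Of 29 DNA replication genes, 4 were below and 0 above (6 and 0 at an unadjusted p under 0.05). Rrm2, of ribonucleotide reductase, read 558 and 601 in type A, 1288 and 691 in type B, 157 and 117 in pachytene cells and 561 and 567 in spermatids, with spermatids level with type A (differences -1.97, -2.66 and -1.93 (SE 0.30), adjusted p = 0.00169). The helicase subunit genes Mcm2, Mcm4 and Mcm5 fell, with Mcm5 at 155 and 167 against 374 to 2364. Mcm7, of the same complex, read 2349.7 and 2211 and 2054 to 2351 and was not called. Without type B replicate 2, 6 were below and 1 above, and without either spermatid array 2 were below, where Mcm2 and Mcm4 did not pass (adjusted p up to 0.166 and 0.0888). Mcm2 was also lost without pachytene replicate 1 and Mcm4 without pachytene replicate 2.

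**Figure D5:**
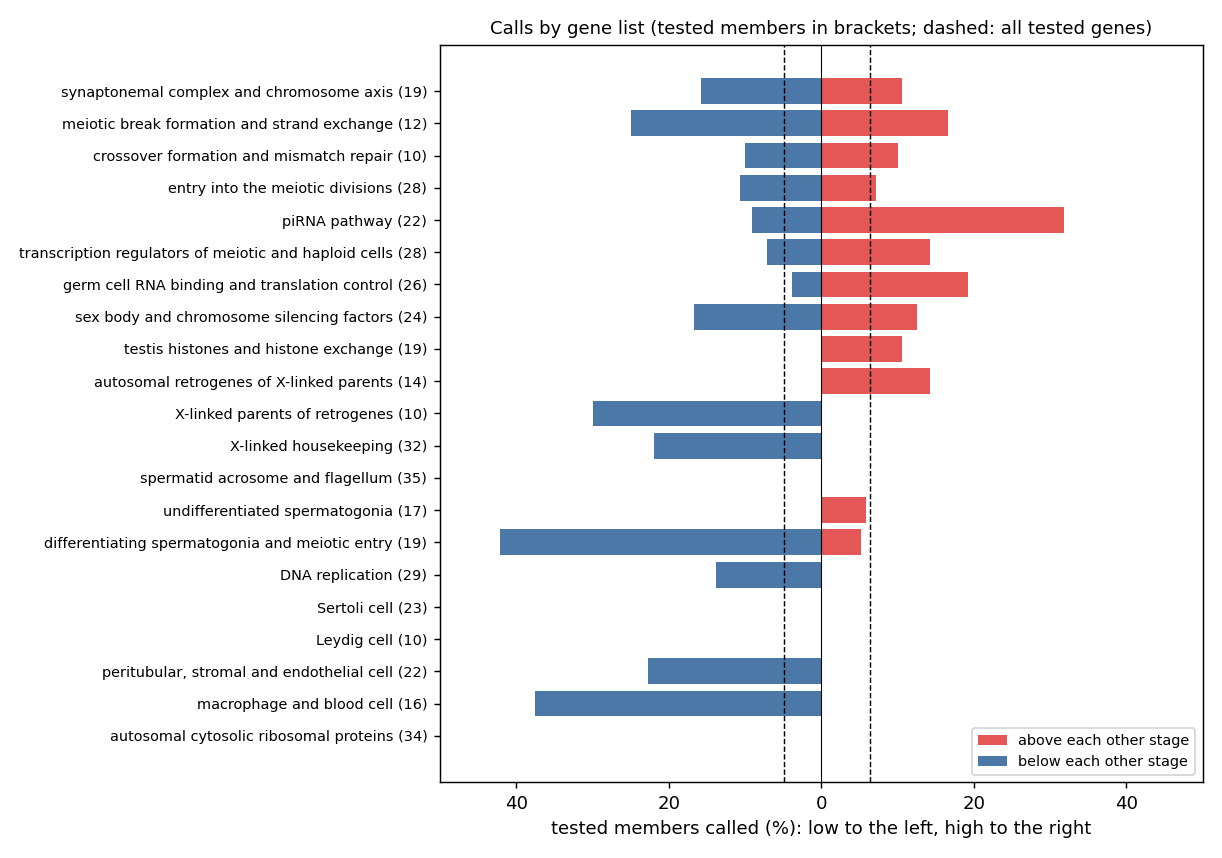
Percentage of the tested members of each list called above (right, red) or below (left, blue) each other stage, with the number tested in brackets and dashed lines at 6.41% and 4.83% for all tested genes. The piRNA pathway has 7 of 22 members above, and differentiating spermatogonia 8 of 19 and macrophage and blood cells 6 of 16 below.

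Markers of somatic testis cells were also present and differed between the stages. The summed signal of 23 Sertoli cell genes was 17228 to 26781 on the spermatogonial arrays, 8077 to 11289 in pachytene cells and 2674 to 2852 in spermatids, and 0 were called either way (also 0 at an unadjusted p under 0.05), though 2 were above without type A replicate 1. For 10 Leydig cell genes the ranges were 3052 to 4931, 2013 to 2943 and 1435 to 1522, with 0 calls (also 0 unadjusted), and 1 above without type B replicate 2. For 22 peritubular, stromal and endothelial genes they were 20049 to 27976, 2645 to 3793 and 2630 to 2637, and 5 were below each other stage. Dcn, a matrix proteoglycan of fibroblasts, read 1160.0 and 1113 in type A, 2079.8 and 2927 in type B, 36.9 and 96.1 in pachytene cells and 296 and 290.0 in spermatids, with differences of -3.90, -5.01 and -2.01 (SE 0.34). Col1a1, Lum, Fn1 and Igf1 were the others. For 16 macrophage and blood cell genes the sums were 1204 to 2454, 680 to 802 and 1010 to 1083, and 6 were below each other stage. The 5 stromal and 6 macrophage genes were 22.7% and 37.5% of their lists. Among all tested genes 4.83% were below and 6.41% above. Lyz2, a lysozyme, read 30.1 and 34.1 in pachytene cells, 111 and 92.2 in spermatids and 120.0 to 210.2 in spermatogonia.

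Over arrays left out in turn, 2 to 6 of the stromal and 2 to 7 of the macrophage genes were below, fewest without a spermatid array and, for the stromal list, pachytene replicate 1. Lum and Igf1 reached adjusted p of 0.259 and 0.245. A pseudocount of 64 ended the calls of Col1a1, Lum and Igf1, and quantile normalization, ribosomal centring and the replicate block each ended that of Lum. Of the 587 autosomal genes below each other stage, 11 belong to these somatic lists. Defining markers of Sertoli cells were not at 0 in pachytene cells, with 121 and 142 for Wt1 and 48.4 and 51.5 for Sox9, while Col1a1 read 2.1 and 5.4. The part of somatic RNA in the genes below each other stage was not tested. Cytosolic ribosomal protein genes of the autosomes had 0 of 34 called, with medians of -0.89, -1.10 and 0.05. At an unadjusted p under 0.05, 1 was above and 0 below. Among all tested genes 6.41% were called above and 4.83% below. At the scale of neighbouring genes, 12.2% of genes above each other stage had a gene of the same kind next to them among the tested genes, beside 12.5% of all placed genes, and below it was 13.9% beside 9.39%, or 10.7% beside 8.46% on autosomes alone.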

How the data were processed

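The deposited values were intensities on a linear scale, 1 column per array, made by the authors with MAS5, per the submitters' processing notes. No source used here gives the version of MAS5. Each array had a trimmed mean (2% off each end) of 125. Of 45101 probe sets, 64 were controls, 34945 named 1 gene, 932 several and 9160 none. Of those naming 1 gene, 34741 matched RefSeq and each gene was represented by its probe set of highest mean. The 14155 tested genes exceeded the array median on at least 2 of 8 arrays. On log2(signal + 16), limma 3.58.1 in R 4.3.3 was fitted with 1 mean per group (4 residual and 4.01 prior degrees of freedom), with Benjamini-Hochberg adjustment within each of 3 comparisons. The added 16 makes differences of dim genes look smaller than they are. The method was tested on simulated data.

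Named were the markers, the 20 widest gaps above, the 10 X-linked and 12 autosomal widest gaps below, list members called or left uncalled, and genes at the edge of the range rule. The X-linked genes inside the upper range and the Y-linked genes were named after their values were seen. Members and lists were chosen with earlier results of these data known. Alternatives changed the pseudocount, filter, scaling, probe set choice, comparison, variance trend, replicate block and arrays used.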

Additional observations from a re-analysis of the deposited data

How the results depend on the processing

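The counts of genes above each other stage and genes below each other stage changed most when pachytene cells were compared with the mean of the 3 other stages, which gave 3432 above and 4486 below. Centring on ribosomal protein genes gave 264 below each other stage and 911 genes low in pachytene by range. Asking for a gap of at least 1 log2 unit left 284 genes high in pachytene by range and 243 low. Leaving out 1 array gave 386 to 1119 genes above and 376 to 881 below each other stage, and 2351 to 2697 high and 1917 to 2648 low by range. Leaving out both type B arrays, chosen after seeing the data, gave 2520 high and 2057 low by range. The X-linked level in pachytene cells stayed below the other stages under every alternative run, from -0.62 with a pseudocount of 64 to -1.60 with the stricter filter. Against the mean of the 3 other stages, genes below outnumbered genes above, the opposite of the counts against each stage, and ribosomal centring turned the median difference of all genes from type A and type B from negative to positive. With a replicate block, 900 genes were above each other stage (861 shared with the fit without it) and 682 below (642 shared). The numbers did not pair the samples, since the correlations between same-numbered arrays ran from -0.175 to 0.169. The cause of these shifts was not tested. Where 1 array was left out fewer arrays were used, and the limma counts moved in both directions. With 2 arrays per group, p-values measure only the spread between these preparations.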

Other observations

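Of 9160 probe sets that name no gene, 3460 passed the filter. Of these, 311 (8.99%) were higher on both pachytene arrays than on all others and 398 (11.5%) were lower. The widest gap belonged to probe set 1458606_at, with signals of 536.1 and 471.8 in pachytene cells, 5.1 and 4.4 in type A, 24.5 and 68.9 in type B and 62.8 and 58.6 in spermatids. Next came 1460489_at, with 1625 and 1185 in pachytene cells and 9.5 to 210.6 elsewhere. Probe set 1453873_at read 261.1 and 223.6 in pachytene cells and 2.7 to 30.9 elsewhere. These 3 were picked for the width of this gap, so standing clear of the other stages follows from the choice. Probe set 1453873_at passed the filter through the pachytene arrays alone.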
